A study of Mus musculus with 6 samples.

Results

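The genes described here are *Lcn2* and 9 acute-phase genes that were chosen by name: *Saa1*, *Saa2*, *Saa3*, *Hp*, *Orm1*, *Orm2*, *Lbp*, *Steap4* and *Serpina3n*. They were selected on the higher *Lcn2* count of the knockout libraries, so every difference between the groups is given for them as a description, without a test. It was also known by then that some liver-made genes ran high in replicate 3 of both groups. Of these 10 genes, 9 had a row in a table of 37024 rows and 19509 gene symbols, 8 had a count above 0, and 7 were among the 9872 rows that passed the filter on low counts. A symbol with more than 1 row was represented by its most counted row.

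The RNA came from inguinal white adipose tissue (iWAT) of C57BL/6 mice fed Western diet for 12 weeks. The 3 samples of the *Lexis*-AdKO group came from mice that carried the *Lexis* fl/fl allele together with Adipoq-cre, in which Cre is driven by the promoter of the adipocyte gene adiponectin, and the 3 samples of the *Lexis*-AdWT group came from littermates with the same floxed allele and no Cre. *Lexis* is a long noncoding RNA of adipose tissue. The labels give no age or sex for these samples, the study's methods give an age only for most of its experiments, and the RNA was taken from whole tissue, with all cell types of the depot in it.

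Total counts ranged from 14470542 to 17882713 per library, and levels are given as CPM (counts of a gene relative to all counts of its library) after TMM scaling, a method of edgeR that balances libraries on their bulk of genes. Of the study's 16 RNA FISH probes against *Lexis*, 9 had an exact match on chromosome 4 of mm9, all within the noncoding gene *4930412L05Rik* (ENSMUSG00000087192.1, chr4:53217938-53230729, minus strand). This gene had 8, 9 and 8 counts with the AdWT label and 21, 11 and 13 with the AdKO label. Its count was thus higher in every library labelled AdKO, at few counts. The log2 difference was 0.87 ± 0.381 (SE), with an adjusted *p* of 0.851 by edgeR. The table gives 1 count for the gene and does not separate its exons, so the deleted part could not be checked by itself. AdWT and AdKO below therefore name libraries by their labels, and every direction rests on those labels. In AdWT replicate 3 and AdKO replicate 3, the summed levels of the hepatocyte and epithelial marker lists were above those of the other 4 libraries, though not every gene of the lists was, and all 5 skeletal muscle genes tested were lower in every library labelled AdKO than in every library labelled AdWT. Adipocyte genes (6 with counts of 10 listed) summed to 46216, 50325 and 54686 CPM in AdWT and to 42072, 41535 and 41403 CPM in AdKO, lower in every library labelled AdKO. Most of each sum was *Fabp4*, the gene of a fatty acid carrier, at 27207 to 35049 CPM. *Fabp4* and *Lep*, the gene of leptin, separated the groups in the same direction in CPM. The log2 difference of *Lep* was −0.46 ± 0.161 (SE), with an adjusted *p* of 0.851 by edgeR. *Adipoq*, *Plin1*, *Lipe* and *Pparg* overlapped between the groups, and *Plin1* had the higher mean in AdKO (log2 difference 0.10 ± 0.0981, SE). The median log2 difference of the tested adipocyte genes was −0.19, and −0.02 without replicate 3 of both groups. *Pparg* was at 15.0 to 21.6 CPM, and the adipocyte lipase *Pnpla2* was listed at 0 in all libraries.

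Acute-phase proteins are secreted proteins whose amounts in plasma change with inflammation. Most are made by hepatocytes under interleukin-6 and interleukin-1, through the transcription factors STAT3, C/EBPβ, C/EBPδ and NF-κB, but adipose tissue is also a known source of some of them: haptoglobin, lipocalin 2, serum amyloid A3, lipopolysaccharide binding protein and the metalloreductase STEAP4 are made in fat, by adipocytes, macrophages or both. In mice, *Saa1*, *Saa2* and *Orm2* are known mainly from the liver, *Orm1* from liver and fat, whereas *Saa3* is known mainly from tissues outside it.

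The upstream sequences are shown because most of these genes share a short motif near their start. In the RefSeq table of promoters (GRCm38.p6), 7 of the 10 genes had an entry; *Hp*, *Orm1* and *Lbp* had none. The 250 bases before the start were searched on both strands. The C/EBP motif TTGCNNAA was found in 6 of the 7 promoters, all but that of *Serpina3n*, and in 9.56% of the 32851 promoters of the table. Its letters were chosen with earlier results known, and the windows of *Saa1* and *Saa2* are much alike, so nothing is read from this count. The windows of 58 bases around the motif follow, 5′ to 3′ on the gene's strand, with the motif in capitals.

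*Lcn2*, chr2:32387923-32387980, minus strand: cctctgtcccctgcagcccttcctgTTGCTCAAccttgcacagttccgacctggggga
*Saa1*, chr7:46743130-46743187, minus strand: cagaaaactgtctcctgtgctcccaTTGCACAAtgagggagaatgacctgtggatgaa
*Saa2*, chr7:46751625-46751682, plus strand: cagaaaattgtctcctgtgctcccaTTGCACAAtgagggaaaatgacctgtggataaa
*Saa3*, chr7:46715743-46715800, minus strand: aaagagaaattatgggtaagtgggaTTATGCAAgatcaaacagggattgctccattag
*Orm2*, chr4:63362304-63362361, plus strand: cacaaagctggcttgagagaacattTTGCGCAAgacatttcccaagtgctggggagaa

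The motif began 216 bases before the RefSeq start in *Lcn2*, 182 in *Saa1*, 183 in *Saa2*, 99 in *Saa3* and 120 in *Orm2*. The RefSeq start of *Lcn2* lay at base 59 of its longest coding transcript (GENCODE M1), so its distance depends on the start taken. In *Saa3* the motif was read on the opposite strand. The windows of *Saa1* and *Saa2* carried the same 8 bases.

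*Steap4* and *Serpina3n* had other motifs as well. The STAT motif TTCNNNGAA was found in *Steap4* among the 7 promoters and in 7.02% of the table. The NF-κB motif GGNNTTTCC was found in 3 (*Saa3*, *Steap4* and *Serpina3n*) and in 4.93% of the table. The glucocorticoid receptor motif ACANNNTGT was found in 2 (*Lcn2* and *Serpina3n*) and in 5.84% of the table. Capitals in the following stretches mark, in order, the NF-κB, STAT and C/EBP motifs of *Steap4* and the NF-κB and glucocorticoid receptor motifs of *Serpina3n*. A match of letters is not a bound site, and no binding was measured here.

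*Steap4*, chr5:7960242-7960402, plus strand: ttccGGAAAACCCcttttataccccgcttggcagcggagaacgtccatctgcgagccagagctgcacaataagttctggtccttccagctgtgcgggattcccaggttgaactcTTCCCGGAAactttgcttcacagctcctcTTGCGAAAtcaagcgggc
*Serpina3n*, chr12:104406533-104406648, plus strand: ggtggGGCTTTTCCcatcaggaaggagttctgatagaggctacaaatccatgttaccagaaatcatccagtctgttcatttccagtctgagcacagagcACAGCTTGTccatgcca

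The 8 genes with counts covered a wide range of levels in iWAT. Expressed as CPM per kilobase of the longest coding transcript, so that genes of different length can be set side by side, *Hp* was the most abundant (8207 ± 1987, SD over the 6 libraries), followed by *Serpina3n* (1031 ± 207), *Steap4* (324 ± 32.9) and *Lbp* (206 ± 19.9). These 4 genes did not overlap with each other or with the genes after them in any library. *Lcn2* (27.9 ± 26.3) and *Saa3* (25.3 ± 16.4) did not differ beyond their spread: *Lcn2* was the higher of the pair in 2 of 6 libraries. *Orm2* (3.07 ± 0.891) and *Saa2* (from 0.107 to 7.57) came last, with overlapping ranges and *Orm2* above *Saa2* in 5 of 6 libraries.

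**Figure D1:**
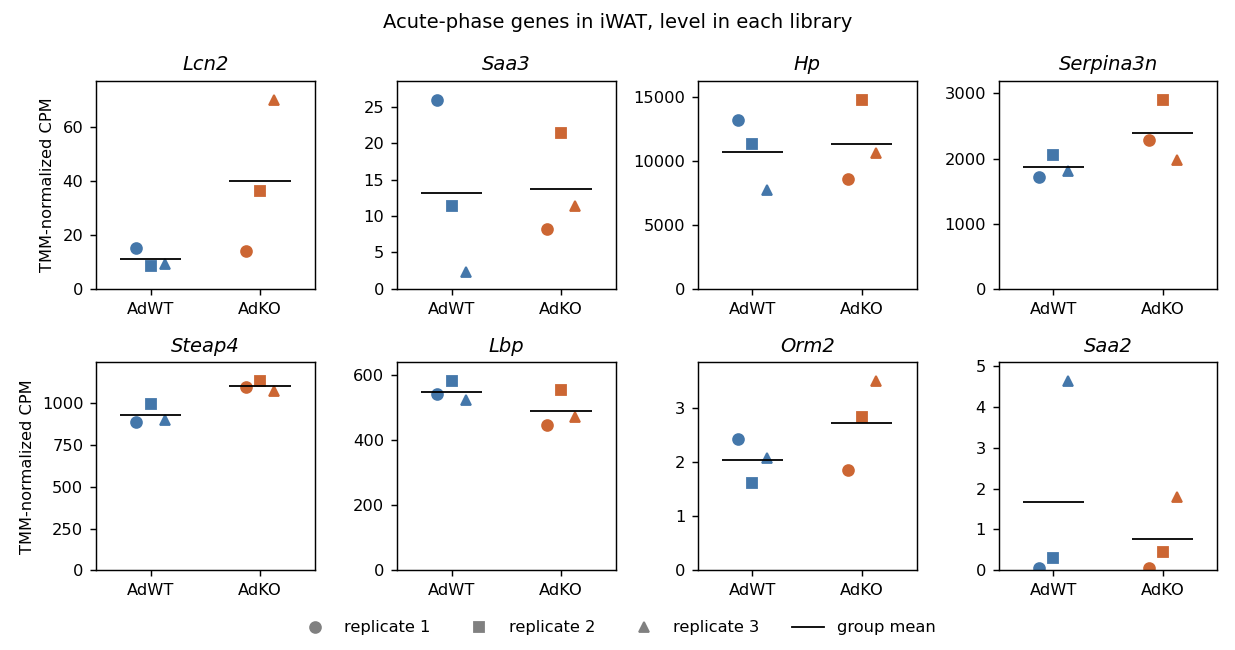
TMM-normalized CPM (vertical axis, linear from 0, its own scale in each panel) of the 8 acute-phase genes with counts, in the 3 libraries labelled AdWT (blue) and the 3 labelled AdKO (orange). The marker shape gives the replicate number and the bar the group mean. *Steap4* is the gene whose groups do not overlap; *Lcn2* is highest in AdKO replicates 2 and 3, and *Saa2* in replicate 3 of both groups.

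*Lcn2* encodes lipocalin 2, a secreted protein that binds bacterial siderophores and so keeps iron from bacteria (ENSMUSG00000026822.9, mm9 chr2:32240153-32243317, minus strand). Its count was 232, 141 and 141 in AdWT replicates 1 to 3 and 203, 550 and 1168 in AdKO replicates 1 to 3. As levels these were 15.2, 8.43 and 9.43 CPM against 14.0, 36.2 and 70.2 CPM. AdKO replicates 2 and 3 lay above all other libraries, but AdKO replicate 1 lay below AdWT replicate 1, so the groups overlapped. The log2 fold change of AdKO over AdWT was 1.87 (standard error 0.539, 3.65-fold). No 50-base window of its transcript occurred in another gene.

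The size of the *Lcn2* difference rested on 1 library. Without AdKO replicate 3 the log2 fold change was 1.19, and without the libraries numbered 3 in both groups it was 1.09; with any other single library left out it lay between 1.70 and 2.27. The spread of *Lcn2* within the groups, an SD of 0.883 on the log2 scale, was larger than that of 98.8% of the 1983 rows of like level, against a median of 0.144 for those rows. The AdKO group had the wider spread, with an SD of 1.17 on the log2 scale against 0.445 in AdWT.

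*Lcn2* can come from adipocytes, macrophages, neutrophils and epithelial cells, and these sources were not separated in this tissue. In bulk samples, a change in the number of cells of a type and a change in RNA per cell cannot be told apart. The highest *Lcn2* count, in AdKO replicate 3, came with the highest summed level of the epithelial, macrophage and neutrophil marker lists, the last of which rested there on *Ltf*. Epithelial markers summed to 2.03, 1.97 and 22.7 CPM in AdWT and 2.68, 2.17 and 55.9 CPM in AdKO. All 8 epithelial genes with counts, of 11 listed, were highest in AdKO replicate 3, where *Epcam* reached 216 counts against 3 to 20 elsewhere.

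Macrophage markers (7 genes with counts of 10 listed) summed to between 504 and 1350 CPM in AdWT and between 1134 and 1686 CPM in AdKO, with the highest value again in AdKO replicate 3. In that library *Gpnmb* made 785 of the 1686 CPM, and 3 of the 7 genes were highest there. *Mrc1* and *Csf1r* were highest in AdKO replicate 2, and *Lyz2* and *Cd163* in AdWT replicate 1. *Emr1* was at 0 in all libraries. Neutrophil markers (8 with counts of 12) summed to between 20.7 and 36.6 CPM in AdWT and between 17.3 and 50.5 CPM in AdKO. In the libraries other than AdKO replicate 3, most of that sum was *S100a8*, a calcium-binding protein of neutrophils and monocytes, at 35.7, 25.3 and 18.2 CPM in AdWT and 15.7, 36.7 and 19.8 CPM in AdKO, highest in AdKO replicate 2. The granule genes *Mpo*, *Camp* and *Ngp* had at most 1 count in a library, *Elane* had 4 to 18, and the 2 rows of *Retnlg* were listed at 0. *Ltf*, lactotransferrin, a protein of neutrophil granules and of secretory epithelia, had 3, 2 and 18 counts in AdWT and 3, 13 and 481 in AdKO, and in AdKO replicate 3 it made 28.9 of the 50.5 CPM of the neutrophil sum. In AdKO replicate 2, the second library with a high *Lcn2* level, the epithelial sum was 2.17 CPM and *Epcam* had 5 counts, within the range of the libraries with low *Lcn2*. The part of these cell types in the *Lcn2* values was not tested.

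Over the 6 libraries, Pearson's *r* of the log2 level of *Lcn2* was 0.74 with the macrophage sum, 0.79 with the neutrophil sum, 0.45 with the epithelial sum and −0.77 with the adipocyte sum. These are descriptions of 6 points that share scaling and group, and carry no test. With the hepatocyte sum, counted without the fat-expressed genes *Cyp2e1*, *Trf* and *Rbp4*, *r* was 0.19.

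**Figure D2:**
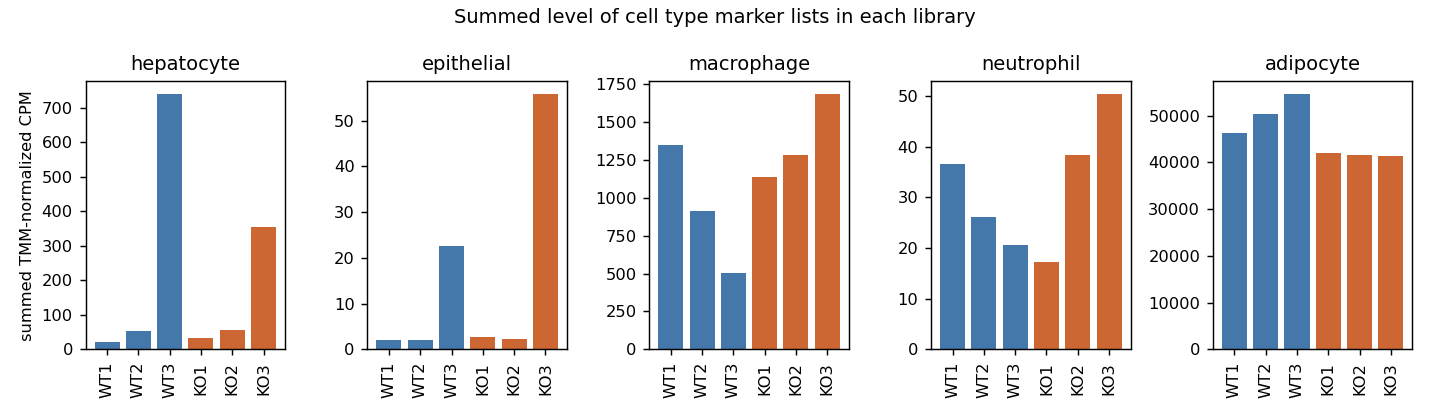
Summed TMM-normalized CPM (vertical axis, linear from 0, its own scale in each panel) of marker lists of 5 cell types in each of the 6 libraries, blue for those labelled AdWT and orange for AdKO; the hepatocyte panel leaves out *Cyp2e1*, *Trf* and *Rbp4*. Hepatocyte and epithelial sums are high in replicate 3 of both groups, at 741 and 355 CPM and at 22.7 and 55.9 CPM.

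*Saa3* encodes an inducible serum amyloid A that associates with lipoproteins (ENSMUSG00000040026.7, mm9 chr7:53967368-53971046, minus strand). Its counts were 396, 190 and 35 in AdWT and 119, 324 and 190 in AdKO, or 25.9, 11.4 and 2.34 CPM against 8.18, 21.3 and 11.4 CPM. Both the highest and the lowest library belonged to AdWT, 11.1-fold apart, and the groups overlapped throughout. The log2 fold change was 0.05 (standard error 0.724), and the sign turned with single libraries: it was −0.45 without AdWT replicate 3 and 0.99 without AdWT replicate 1. The within-group SD of 1.32 on the log2 scale exceeded that of 98.7% of the 1919 rows of like level.

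*Saa3* and *Lcn2*, known together from inflamed fat, did not follow each other closely here: Pearson's *r* of their log2 levels was 0.40 over the 6 libraries. *Saa3* was lowest in AdWT replicate 3, the library with the highest hepatocyte sum, which also had the lowest macrophage sum, 504 CPM. Its Pearson's *r* was −0.74 with the hepatocyte sum (without the same 3 genes) and 0.82 with the macrophage sum.

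*Hp* encodes haptoglobin, which binds free haemoglobin in plasma (ENSMUSG00000031722.9, mm9 chr8:112099030-112103072, minus strand). Its counts were 200963, 188991 and 115017 in AdWT and 125070, 223952 and 177040 in AdKO. The lowest and the highest library, 7696 and 14752 CPM, were 1.92-fold apart, and the groups overlapped in part. The log2 fold change was 0.08 (standard error 0.256); it was −0.12 without AdWT replicate 3 and −0.16 without AdKO replicate 2. *Hp* and *Saa3* ordered the libraries much alike, with a Pearson's *r* of 0.92 over the 6 log2 levels and also of 0.92 for deviations from the group means. Both were lowest in AdWT replicate 3.

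*Lbp* encodes the plasma protein that hands bacterial lipopolysaccharide to CD14 (ENSMUSG00000016024.3, mm9 chr2:158132229-158158588, plus strand). It was the tested gene of the 7 with a lower mean in AdKO: 541, 580 and 523 CPM in AdWT and 448, 552 and 472 CPM in AdKO. AdKO replicate 2 lay within the AdWT range and the other AdKO libraries below it. AdKO over AdWT, this gave a log2 fold change of −0.16 (standard error 0.0964).

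*Steap4* encodes a metalloreductase of iron and copper that is induced in fat by feeding and by TNF (ENSMUSG00000012428.8, mm9 chr5:7960472-7982213, plus strand). Its counts were 13610, 16681 and 13470 in AdWT and 15986, 17185 and 17920 in AdKO. As levels these were 891, 997 and 901 CPM against 1099, 1132 and 1077 CPM, so that every library labelled AdKO lay above every library labelled AdWT. Over all rows tested, 6.16% separated in this direction and 5.72% in the other, and *Steap4* was 1 of the 7 acute-phase genes to do so. The log2 fold change was 0.25 (standard error 0.0780) and lay between 0.22 and 0.29 under all 15 alternatives. Its within-group SD was 0.0684 on the log2 scale, smaller than that of most of the 195 rows of like level.

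*Serpina3n* encodes a secreted serine protease inhibitor related to human α1-antichymotrypsin (ENSMUSG00000021091.8, mm9 chr12:105644939-105652539, plus strand). It was measured at 1723, 2054 and 1818 CPM in AdWT and 2291, 2901 and 1985 CPM in AdKO. AdKO replicate 3 fell below AdWT replicate 2, and the other AdKO libraries lay above the AdWT range. A log2 fold change of 0.36 (standard error 0.150) resulted. *Steap4* and *Serpina3n* correlated with each other over the 6 libraries (Pearson's *r* was 0.85, and 0.73 for deviations from the group means), whereas *Serpina3n* and *Lcn2* had an *r* of 0.35.

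**Figure D3:**
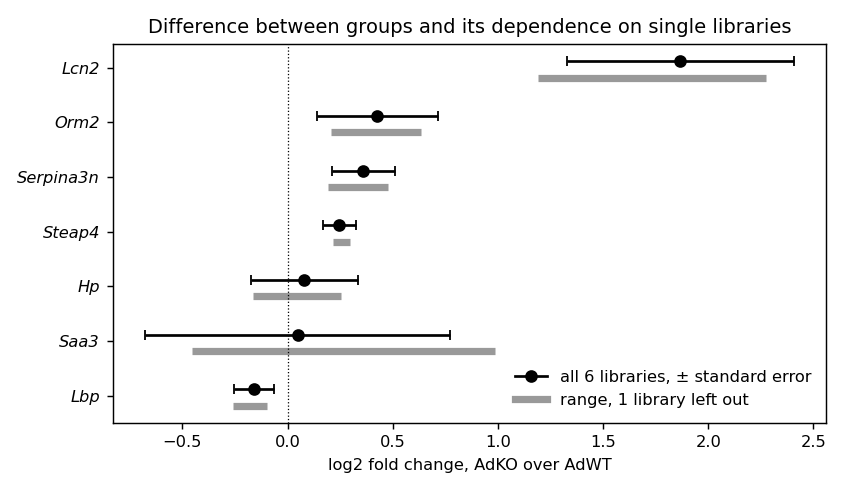
Log2 fold change of AdKO over AdWT (horizontal axis) for the 7 acute-phase genes that passed the filter on low counts; points and whiskers give the edgeR estimate from all 6 libraries and its standard error, and grey bars the range of estimates with 1 library left out. The grey bars of *Saa3* and *Hp* cross 0, and that of *Lcn2* runs from 1.19 to 2.27.

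The 3 genes known mainly from liver, *Saa1*, *Saa2* and *Orm2*, were few in counts. *Saa1* (ENSMUSG00000074115.3, mm9 chr7:53995871-53998350, minus strand) had 2 rows, both listed at 0 in all 6 libraries. Other symbols with several rows were also at 0, among them *Pnpla2* with 4 rows, so a 0 here sets no limit on expression. *Orm1* (ENSMUSG00000039196.2, mm9 chr4:63005594-63009197, plus strand) was not analysed here. *Saa2* (ENSMUSG00000057465.4, mm9 chr7:54007203-54009684, plus strand) had 1, 5 and 69 counts in AdWT and 1, 7 and 30 in AdKO, too few to pass the filter. It was high in replicate 3 of both groups and not otherwise.

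*Saa1* and *Saa2* encode the serum amyloid A proteins that the liver releases in the acute phase, and their first 60 coding bases (GENCODE M1 transcripts) were identical, whereas *Saa3* differed at 28 of them. The following lines show why counts of *Saa1* and *Saa2* can be confused; capitals in *Saa3* mark bases that differ from *Saa1*.

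*Saa1*: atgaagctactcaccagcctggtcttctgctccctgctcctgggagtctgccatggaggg
*Saa2*: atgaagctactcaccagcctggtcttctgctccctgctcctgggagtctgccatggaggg
*Saa3*: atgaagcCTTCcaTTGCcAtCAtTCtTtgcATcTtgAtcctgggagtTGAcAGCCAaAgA

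Over the whole coding sequence, *Saa1* and *Saa2* were identical at 351 of 369 bases (95.1%), *Saa1* and *Saa3* at 77.8%. Of the 50-base windows of the *Saa2* transcript, 9.09% also occurred in *Saa1*, and of those of *Saa3* 1.87% also occurred in *Saa1*. The split of reads between *Saa1* and *Saa2* is therefore uncertain, and the *Saa2* count may hold reads of both.

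The *Saa2* count moved with a gene of hepatocytes. *Apoa2*, an apolipoprotein of high-density lipoprotein made by the liver, had 44, 228 and 3031 counts in AdWT and 89, 149 and 1379 in AdKO. Per 100 counts of *Apoa2* there were 2.27, 2.19 and 2.28 counts of *Saa2* in AdWT and 1.12, 4.70 and 2.18 in AdKO. The exact (Clopper-Pearson) 95% intervals, which cover counting error only, were 1.77 to 2.89 in AdWT replicate 3, 1.46 to 3.12 in AdKO replicate 3 and 1.86 to 9.92 in AdKO replicate 2, and all 6 intervals shared values. *Apoa2* itself ranged from 44 to 3031 counts. Other liver genes differed in this: the ratio of *Crp*, the gene of C-reactive protein, lay between 1.12 and 4.55 with 6 intervals that also shared values, whereas *Saa4* stood at 5.74 (4.90 to 6.69) per 100 *Apoa2* counts in AdWT replicate 3 and 1.96 (1.29 to 2.86) in AdKO replicate 3, and *Hpx* ranged from 42.5 to 218 over the libraries. Over the 6 libraries the log2 level of *Saa2* had a Pearson's *r* of 0.99 with the hepatocyte sum without *Cyp2e1*, *Trf* and *Rbp4*.

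Hepatocyte genes were present in every library. Of 23 listed, 15 had a row and 13 had counts, and all 13 were highest in AdWT replicate 3; *Alb*, *Apoa1* and *Fgb* were not analysed here, and *Serpina1a* and *Serpina1b* were at 0. *Ttr*, the plasma carrier of thyroxine, had 56, 155 and 2225 counts in AdWT and 35, 136 and 929 in AdKO. *Saa4*, a constitutive serum amyloid A of liver, had 5, 10 and 174 counts in AdWT and 3, 3 and 27 in AdKO, and *Hpx*, which binds free haem, had 96, 97 and 1485 in AdWT and 61, 176 and 666 in AdKO. The liver genes *Crp* and *Hamp* were likewise highest in AdWT replicate 3, at 101 and 231 counts, and next highest in AdKO replicate 3, at 45 and 121. Not every gene of the longer acute-phase list below did so. *Serpina1d* was highest in AdKO replicate 3, at 271 counts against 218 in AdWT replicate 3. *Serpina1e* was lowest in AdWT replicate 3, at 33 counts, and highest in AdKO replicate 3, at 821.

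*Orm2*, which encodes α1-acid glycoprotein, a plasma carrier of lipophilic molecules, did not have that pattern (ENSMUSG00000061540.3, mm9 chr4:63023483-63026912, plus strand). Its counts were 37, 27 and 31 in AdWT and 27, 43 and 58 in AdKO, the groups overlapped, and the log2 difference was 0.43 (standard error 0.287). Per 100 *Apoa2* counts there were 84.1, 11.8 and 1.02 counts of *Orm2* in AdWT and 30.3, 28.9 and 4.21 in AdKO, so its count did not scale with that of *Apoa2*. Its log2 level followed that of *Lcn2* instead, with a Pearson's *r* of 0.93 over the 6 libraries and 0.96 for deviations from the group means, at 27 to 58 counts. *Orm2* shared 20.4% of its 50-base windows with *Orm1*, so its count may hold reads of that gene, and its paralog *Orm3* had at most 10 counts in a library.

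**Figure D4:**
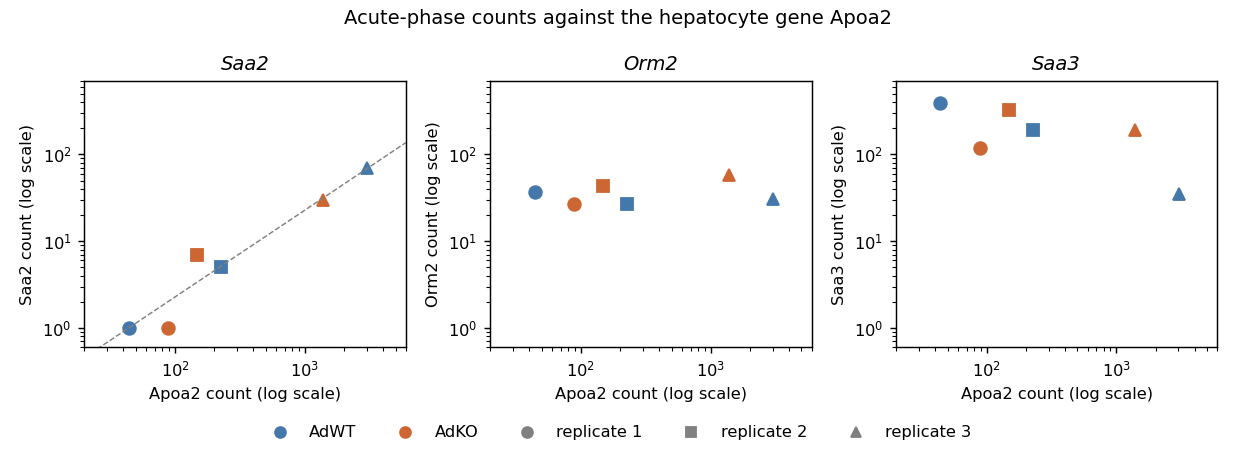
Counts of *Saa2*, *Orm2* and *Saa3* (vertical axes, log scale) against the count of the hepatocyte gene *Apoa2* (horizontal axis, log scale) in each library, blue for AdWT and orange for AdKO, with the marker shape for the replicate number. The dashed line in the *Saa2* panel is the ratio to *Apoa2* in AdWT replicate 3, 2.28 per 100, so that library lies on it by construction. AdWT replicates 1 and 2 and AdKO replicate 3 lie close to it. AdKO replicate 2 lies above it, at 4.70 per 100, and AdKO replicate 1 below it, at 1.12, with *Saa2* counts from 1 to 69. The counts of *Orm2* and *Saa3* do not rise with that of *Apoa2*.

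The highest value of *Hp*, *Saa3*, *Lcn2*, *Lbp*, *Steap4*, *Serpina3n* and *Orm2* lay in a library other than AdWT replicate 3, which had the highest hepatocyte sum, whereas that of *Saa2* lay in it. A high level of liver-made genes in replicate 3 of both groups was known when the genes were chosen, so these places are a description only. Without the libraries numbered 3 in both groups, where the hepatocyte and epithelial sums ran high, the log2 fold change was 1.09 for *Lcn2*, −0.33 for *Saa3* and −0.07 for *Hp*, and the other 4 genes kept their direction.

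Of the 7 acute-phase genes tested, 6 had a higher mean and 1 a lower mean in AdKO, and their median log2 fold change was 0.25, against 0.01 over all 9872 rows. Without AdKO replicate 2 it was 0.19 for the same 7 genes, and 0.014 with the 8 genes that then passed the filter. Because the genes were chosen with this contrast in view, nothing is read from these counts. Over all rows, 2.76% were higher and 2.98% lower in AdKO at an unadjusted *p* under 0.05 (edgeR's quasi-likelihood test). After Benjamini-Hochberg adjustment edgeR called 0 rows of 9872 (0%), none of these genes among them, with 566 rows at an unadjusted *p* under 0.05; DESeq2 called 17 rows at an adjusted *p* under 0.05.

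Among the relatives of these genes, 8 of 16 were tested, 6 with a higher and 2 with a lower mean in AdKO, and the median log2 fold change was 0.14. It was −0.15 without AdKO replicate 2 and 0.44 without AdKO replicate 1, with 9 genes tested in each of these fits. *Serpina3b* separated the groups (5, 5 and 8 counts in AdWT against 10, 16 and 16 in AdKO, edgeR adjusted *p* = 0.851) but at few counts. *Serpina3c*, the relative of *Serpina3n* with the most counts, had 10654, 15845 and 14142 counts in AdWT and 11116, 11321 and 12765 in AdKO, or a log2 difference of −0.19 (standard error 0.125), so its mean was lower in AdKO where that of *Serpina3n* was higher. Of the *Serpina3n* windows, 6.75% occurred in other genes, with 51 of these 136 windows in *Serpina3g*. The reductases *Steap1*, *Steap2* and *Steap3*, relatives of *Steap4*, had at most 14 counts in a library.

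The other acute-phase proteins, a list of 27 genes with 12 tested, split into 7 higher and 5 lower. Their median log2 fold change was 0.14. With the same number of genes tested it was 0.65 without AdWT replicate 3 and −0.19 without AdKO replicate 3. Other settings also brought in genes of low counts: the median was −0.41 with DESeq2 and −0.40 with rows kept at a single count in any library (17 genes each), and −0.19, −0.30, −0.04 and 0.07 without AdWT replicates 1 and 2 and AdKO replicates 1 and 2 in turn (14 genes each). *C4b*, complement component 4, separated the groups with 12130, 12336 and 9453 counts in AdWT and 13606, 15341 and 13774 in AdKO (log2 fold change 0.36, standard error 0.114). It did not pass adjustment (adjusted *p* = 0.851, edgeR). *C3* was not analysed here, and the rows of *Cp* were at 0.

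Cytokines that induce acute-phase genes were scarcely represented: *Il6*, *Il1b* and *Tnf* were not analysed here. Of the 12 cytokine and chemokine genes listed, 3 were tested. *Osm* (oncostatin M) had 14, 6 and 5 counts in AdWT and 10, 13 and 13 in AdKO (log2 fold change 0.53, standard error 0.454). The largest log2 fold change of the 3 was that of a chemokine for monocytes, *Ccl2*: 0.56 (standard error 0.233, adjusted *p* = 0.851, edgeR). Its counts were 211, 212 and 126 in AdWT and 192, 264 and 346 in AdKO. Of 7 cytokine receptor genes tested, 4 were higher and 3 lower in mean. *Il6st*, the signalling receptor subunit of interleukin-6, had a log2 fold change of 0.16 (standard error 0.0770), and its groups did not overlap on the scale of CPM.

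Of 8 transcription factors and feedback genes tested, 4 were higher and 4 lower, with a median log2 fold change of 0.02. *Socs3*, which STAT3 induces and which restrains it, had 228, 210 and 166 counts in AdWT and 256, 286 and 243 in AdKO (log2 fold change 0.40, standard error 0.158); in CPM the groups overlapped, with AdKO replicate 3 at 14.6 below AdWT replicate 1 at 14.9. *Bcl3*, a partner of NF-κB related to its inhibitors, had a log2 fold change of 0.57 (standard error 0.223). Both had an adjusted *p* of 0.851 (edgeR). *Nfkbia*, the feedback inhibitor of NF-κB, had a log2 fold change of 0.05 (standard error 0.117); *Stat3*, *Cebpb* and *Cebpd* were not analysed here, and *Nfkbiz* had at most 2 counts.

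Glucocorticoids act together with cytokines on several acute-phase genes. Of 10 glucocorticoid response genes tested, 4 were higher and 6 lower in AdKO (median log2 fold change −0.18, but −0.029 without AdWT replicate 3 and −0.072 without both libraries numbered 3). *Tsc22d3*, which encodes the glucocorticoid-induced leucine zipper protein GILZ, was at 92.0, 99.7 and 114 CPM in AdWT and 79.9, 86.0 and 85.4 CPM in AdKO, so that the groups did not overlap on this scale (log2 fold change −0.28, standard error 0.0926, adjusted *p* = 0.851, edgeR).

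Receptors of these proteins were also measured. *Slc22a17*, a receptor of lipocalin 2, had 50, 38 and 33 counts in AdWT and 40, 62 and 66 in AdKO (log2 fold change 0.48, standard error 0.249), and *Lrp2*, another, had at most 5 counts. *Cd163*, the macrophage receptor of haptoglobin bound to haemoglobin, had 17 to 42 counts per library (log2 fold change −0.22, standard error 0.348). *Lrp1*, a receptor of complexes of serpins with proteases, was at 43974 to 57392 counts, with AdKO above AdWT in all libraries on the scale of CPM (log2 fold change 0.22, standard error 0.0929). Of the 4 tested, none passed adjustment. Of 7 iron-handling genes tested, 3 were higher and 4 lower in mean (median log2 fold change −0.04), with 0 at an unadjusted *p* under 0.05. The median was −0.22 with DESeq2 and −0.21 with rows kept at a single count in any library (12 genes each).

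The rows whose log2 levels were most like those of *Lcn2* over the 6 libraries, among 5728 rows with a mean of at least 5 CPM, included *Tgm2* (Pearson's *r* = 0.992), *Rufy1* (0.990), *S100a4* (0.988) and *Eaf1* (0.979). *Tgm2* varied much less than *Lcn2*, from 2812 to 4282 counts. By deviations from the group means, *Tgm2* (0.997), *Mtmr3* (0.996), *Ezr* (0.990) and *Gpr126* (0.986) were among the most alike.

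For *Saa3* the 5 most alike by level were *Casp8* (0.995), *Susd1* (0.992), *Tnfrsf21* (0.988), *Cenpe* (0.985) and *Rab6a* (0.985). By deviations they were *Emb* (0.998), *Mmp3* (0.997), *Casp8* (0.995), *Spata2* (0.994) and *Ifnar1* (0.994). *Mmp3*, a matrix protease, had 2786, 2244 and 881 counts in AdWT and 2298, 3892 and 3066 in AdKO, with its lowest count in the library lowest in *Saa3*. These rankings are over 6 points that share scaling and group, and *Lcn2* and *Saa3* had no row in common among their nearest 5 by either measure.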

How the data were processed

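RNA from 6 iWAT samples, 3 labelled *Lexis*-AdWT and 3 labelled *Lexis*-AdKO, was sequenced after library preparation with a stranded kit. HISAT2 was used by the authors to align reads to mm9, and the deposited table holds raw counts per row with no normalization. The counting tool, the annotation and the strand setting are not given in the sources used here, so reads of overlapping or near-identical genes may be split between rows. Of 37024 rows, 17470 were at 0 in all libraries. Libraries were grouped by their titles, and no pair was a duplicate.

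Counts were filtered with filterByExpr, scaled by TMM and fitted with glmQLFit and glmQLFTest, with *p* values adjusted (Benjamini-Hochberg) across the 9872 rows kept, at a threshold of 0.05 (R 4.3.3, edgeR 4.0.16, limma 3.58.1; Python 3.11.15, scipy 1.17.1). Standard errors were derived from the fold change and its F statistic (log2 fold change over √F), and log2 levels used a prior count of 2. The common biological coefficient of variation was 0.196. Alternatives were DESeq2 1.42.0, other scalings and filters, summed rows, the replicate number as a block, and each library left out. Both tools were first tested on simulated data. Gene models are GENCODE M1, and promoters come from RefSeq (GRCm38.p6). The genes, lists and motif letters were chosen with earlier results of these data known. Beyond the 10 genes, those named are the defining genes of each list, genes with an unadjusted *p* under 0.05 (at most 5 a list), the 5 rows most like *Lcn2* and *Saa3*, and genes that separated the groups or mark a cell type, which were chosen after their values were seen. A few genes that this rule names are not reported here.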

Additional observations from a re-analysis of the deposited data

How the results depend on the processing

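The count of rows with an adjusted *p* under 0.05 was 0 by edgeR, 17 by DESeq2 and 27 by DESeq2 with its filtering set for 0.05 (chosen after seeing the data), 1 with rows kept at a single count in any library, and 1 without the libraries numbered 3 in both groups (also chosen after seeing the data). With 1 library left out it was 0 to 1, the 1 without AdKO replicate 3. The 566 rows at an unadjusted *p* under 0.05 (272 higher, 294 lower) became 329 without AdWT replicate 2 and 1208 without AdWT replicate 1. With library size alone as the scaling they were 475, split 313 higher and 162 lower.

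The log2 fold change of *Saa3* turned to −0.06 without AdWT replicate 2, −0.45 without AdWT replicate 3, −0.44 without AdKO replicate 2 and −0.33 without both libraries numbered 3, and was 0.99 at its highest. That of *Hp* turned to −0.12 without AdWT replicate 3, −0.16 without AdKO replicate 2 and −0.067 without both libraries numbered 3, and was 0.26 at its highest. The cause was not tested. The other 5 tested genes kept their direction under all 15 alternatives: *Lcn2* 1.09 to 2.27, *Orm2* 0.21 to 0.63, *Lbp* −0.26 to −0.10, *Steap4* 0.22 to 0.29 and *Serpina3n* 0.19 to 0.48. Deviations of same-numbered libraries correlated at −0.0764, −0.132 and 0.330, and the highest correlation, 0.411, was between AdWT replicate 1 and AdKO replicate 2, so the numbers were not taken as pairs; with the replicate block the log2 fold change of *Lcn2* was 1.66, 418 rows had an unadjusted *p* under 0.05 and 0 an adjusted one. Depth limits *Saa2* and *Orm2*, whose counts were under 70 in every library. The median log2 fold change ranged from −0.03 to 0.08 for transcription factors and feedback genes, from −0.04 (8 genes) to 0.35 (4 genes) for receptors and from 0.08 (6 genes) to 0.70 for cytokines over the 15 alternatives, some of which tested more genes.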
